A study of Mus musculus with 14 samples.

Results

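Tnfrsf9, Tnfsf10 and Cd27 are 3 genes of the tumour necrosis factor (TNF) superfamily, chosen by name from the table of natural killer (NK) cell libraries. All 3 were among the 10210 genes of that table and all 3 passed the filter on low counts, which left 8471 genes for testing. The libraries were bulk 3' end RNA sequencing of NK cells from BALB/c mice, a standard inbred strain. In all there were 3 libraries from spleens of healthy mice, 4 from spleens of mice that bore a 4T1-GFP tumour and 4 from the tumours themselves, and the series calls the replicates independent. Whether a library pooled animals, or a spleen and a tumour of one number came from one mouse, is not stated in the sources used here. The labels give an age of 8 weeks for the mice of every group, and the tumour-bearing animals were females injected at that age with 100000 4T1-GFP cells into a mammary fat pad. 4T1 is a mouse mammary carcinoma line that models triple-negative breast cancer, and GFP is the fluorescent protein by which its cells were gated out. All NK cells were enriched magnetically and then sorted as NKp46 and CD45 positive and as negative for GFP, EPCAM, CD3, CD31 and CD14, a gate that can also hold type 1 innate lymphoid cells (ILC1). Tumours went through 20 min of enzyme digestion (collagenase A with DNase, 37 °C) and spleens were crushed without enzymes, so tissue and handling cannot be told apart in any comparison of tumour with spleen.

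Ligands of the TNF superfamily are mostly trimeric proteins of the cell surface, and their receptors carry cysteine-rich repeats outside the cell. Receptors with a death domain can start the caspase cascade, and many receptors without one bind TRAF adaptors. NF-kappaB and survival signals are fed by this second kind, but not by it alone. Tnfrsf9 encodes 4-1BB, a costimulatory receptor of this second kind that appears on NK and T cells after activation and binds the ligand encoded by Tnfsf9. Tnfsf10 encodes TRAIL, a ligand by which NK cells and ILC1 can kill cells that carry its death receptor. Cd27 encodes a costimulatory receptor whose ligand is CD70. In mouse NK cells a high level of CD27 marks the less mature stage, and CD27 is lost as the cells gain KLRG1.

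In the mouse genome (GRCm38, GENCODE M21) Tnfrsf9 lies on the plus strand of chromosome 4 from 150914562 to 150946102, Tnfsf10 on the plus strand of chromosome 3 from 27317028 to 27342427, and Cd27 on the minus strand of chromosome 6 from 125232622 to 125237010. The whole of Cd27 lies inside Vamp1, a gene of the opposite strand, and 28781 bases of Tnfrsf9, its 3′ end included, lie inside Camta1, also on the opposite strand. Only whole gene spans were compared, and whether counting used the strand is not stated in the sources used here. How far reads of Cd27 and Vamp1, or of Tnfrsf9 and Camta1, were told apart is therefore not known. Camta1 was not among the genes of the NK table, so its level could not be given. The 250 bases before a RefSeq start site (GRCm38.p6) are shown for each member because 2 of the 3 genes rose in tumours and the third was not called. They are written 5′ to 3′ on the strand of the gene, with capitals for any match to the motifs named next.
Tnfrsf9, chr4:150927749-150927998: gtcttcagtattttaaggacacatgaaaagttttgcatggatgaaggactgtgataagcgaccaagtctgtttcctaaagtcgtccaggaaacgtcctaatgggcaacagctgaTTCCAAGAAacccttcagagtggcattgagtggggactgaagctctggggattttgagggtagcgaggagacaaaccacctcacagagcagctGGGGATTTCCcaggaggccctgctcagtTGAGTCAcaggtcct
Tnfsf10, chr3:27316827-27317076: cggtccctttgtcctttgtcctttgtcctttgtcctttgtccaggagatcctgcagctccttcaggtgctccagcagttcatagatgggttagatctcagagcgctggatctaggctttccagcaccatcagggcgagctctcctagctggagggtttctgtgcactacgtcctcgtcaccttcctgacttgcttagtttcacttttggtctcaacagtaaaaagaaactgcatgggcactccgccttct
Cd27, chr6:125237028-125237277: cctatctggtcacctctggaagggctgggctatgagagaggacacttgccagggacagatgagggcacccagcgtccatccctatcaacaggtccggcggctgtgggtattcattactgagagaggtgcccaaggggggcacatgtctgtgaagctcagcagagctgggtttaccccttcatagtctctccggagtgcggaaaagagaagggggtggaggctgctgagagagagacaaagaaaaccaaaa
The motifs searched on both strands were kappaB (GGG, any 2 bases, then TTTCC), ISRE (GAAA, any 2 bases, then GAAA), GAS (TTCNNNGAA), AP-1 (TGANTCA), EGR (GCGTGGGCG) and T-box (AGGTGTGA). The Tnfrsf9 window held a kappaB match, which 1.41% of all 32851 RefSeq windows of this length hold. It also held a GAS match, present in 7.02% of windows, and an AP-1 match, present in 6.75%, and none of the 3 overlapped another. The windows of Tnfsf10 and Cd27 held no match to these letters, nor did the window at the other RefSeq start of Tnfrsf9 (chr4:150919905-150920154). A match describes these letters and is not evidence that a factor binds there.

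Total counts ran from 559688 to 1966963 per NK library, summed over listed genes. Levels are in CPM, the count of a gene scaled to a common library size with TMM factors, and 3 counts, taken as the floor for a gene with none, came to 1.54 to 4.62 CPM. This floor covers counting error only. The gated marker gene Ncr1 was at 1602 CPM in healthy spleens, 1359 in tumour-bearing spleens and 840 in tumours, so this marker of the sort was present in every group but lower in tumours (log2 change −0.69 against tumour-bearing and −0.93 against healthy spleens, edgeR adjusted p 0.00486 and 7.14e-04). Of 12 tested NK markers 5 were lower and none higher in tumours against tumour-bearing spleens, where 13.2% of all genes were called lower and 15.8% higher. The list summed to 23733 to 30170 CPM in tumours and 31682 to 36212 CPM in the spleens. The part of this drop in the results was not tested. On the second principal component the spleen libraries fell on 2 sides that cross both spleen groups. One side held replicates 1 and 2 of the tumour-bearing spleens with replicate 1 of the healthy spleens, and the labels name no batch that matches it. Macrophage and monocyte markers, mostly Ccr2, summed to 538 to 860 CPM in the libraries of that side and 163 to 204 CPM in those of the other. Values in bulk libraries do not part fewer expressing cells from less RNA per cell.

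Tnfrsf9 differed between all 3 groups, lowest in healthy spleens and highest in tumours. Healthy spleen NK replicates 1 to 3 had 23.1, 28.9 and 28.9 CPM. Replicates 1 to 4 of the tumour-bearing spleens had 79.3, 105, 109 and 119 CPM, and those of the tumours had 277, 359, 247 and 341 CPM. No library of one group reached into the range of another. The group means were 27.0 ± 3.33 (SD, n = 3), 103 ± 17.1 (n = 4) and 306 ± 53.1 CPM (n = 4). Every one of these values rested on at least 15 counts.

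Against tumour-bearing spleens, Tnfrsf9 rose 2.94-fold in tumours (log2 fold change 1.56, SE 0.152, 95% interval 1.24 to 1.87, edgeR adjusted p 1.87e-07). In this comparison 15.8% of all genes tested were called higher and 16.5% had groups that did not overlap with tumours higher. Against healthy spleens the rise was 11.03-fold (log2 fold change 3.46, 95% interval 3.04 to 3.88, edgeR adjusted p 2.37e-10), which ranked 12 of 8471 genes by p. There, 16.5% of genes were called higher and 18.5% did not overlap with tumours higher. The tumour comparisons share the tumour libraries and are not independent of each other.

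Tnfrsf9 was also higher in the spleens of tumour-bearing mice than in healthy spleens, 3.75-fold (log2 fold change 1.91, SE 0.199, 95% interval 1.49 to 2.32, edgeR adjusted p 2.59e-05). It ranked 3 by p among 8471 genes in a comparison that called only 1.23% of genes higher and in which 6.52% did not overlap with tumour-bearing spleens higher. On either side of the spleen split the order was the same. It was 23.1 CPM in the 1 healthy library and a mean of 92.4 in the 2 tumour-bearing libraries of one side, and means of 28.9 and 114 CPM in 2 libraries each on the other. With the side as a block the rise was 1.99 on the log2 scale (edgeR adjusted p 8.93e-11). The sides were drawn from these same counts, which can make that p too small, so it is no added support. Of the T cell marker list, Cd3d rose in the same comparison, from 28.1 to 80.2 CPM (log2 change 1.47, edgeR adjusted p 0.00446). Cd3g was at 32.2 and 45.5 CPM without a call, and Cd4 did not pass the filter. The T cell list had 5 of 14 genes in the table. Its sums overlapped, at 234 to 354 CPM in healthy and 279 to 349 CPM in tumour-bearing spleens. The Cd3d call between the spleens was lost without healthy replicate 2 (log2 change 1.39, edgeR adjusted p 0.0725). In tumours against tumour-bearing spleens, 1 of the 4 tested T cell markers was higher, Cd28, and 2 were lower, Cd3d and Lat. Of 16 alternative settings, the Cd3d call was kept in 10, the Lat call in 11 and the Cd28 call in 16. The dendritic cell list, with 6 of 11 genes in the table, summed to 194 to 264 CPM in healthy spleens, 333 to 460 in tumour-bearing spleens and 491 to 703 in tumours, the same order as Tnfrsf9. Between the spleens 2 of its 6 tested genes rose, Itgax (log2 change 0.75, edgeR adjusted p 0.0112) and H2-Eb1 (log2 change 1.67, edgeR adjusted p 0.0119). Without healthy replicate 2 both calls were lost, with log2 changes of 0.73 for Itgax and 1.80 for H2-Eb1 (edgeR adjusted p 0.0929 each), and H2-Eb1 was also lost with the replicate block (log2 change 1.44, edgeR adjusted p 0.0607). In tumours against tumour-bearing spleens 5 rose while Itgax fell, where 15.8% of all genes were called higher and 13.2% lower. The Itgax fall kept its call in 12 of 16 alternative settings. The part of these cells in the Tnfrsf9 difference was not tested.

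**Figure D1:**
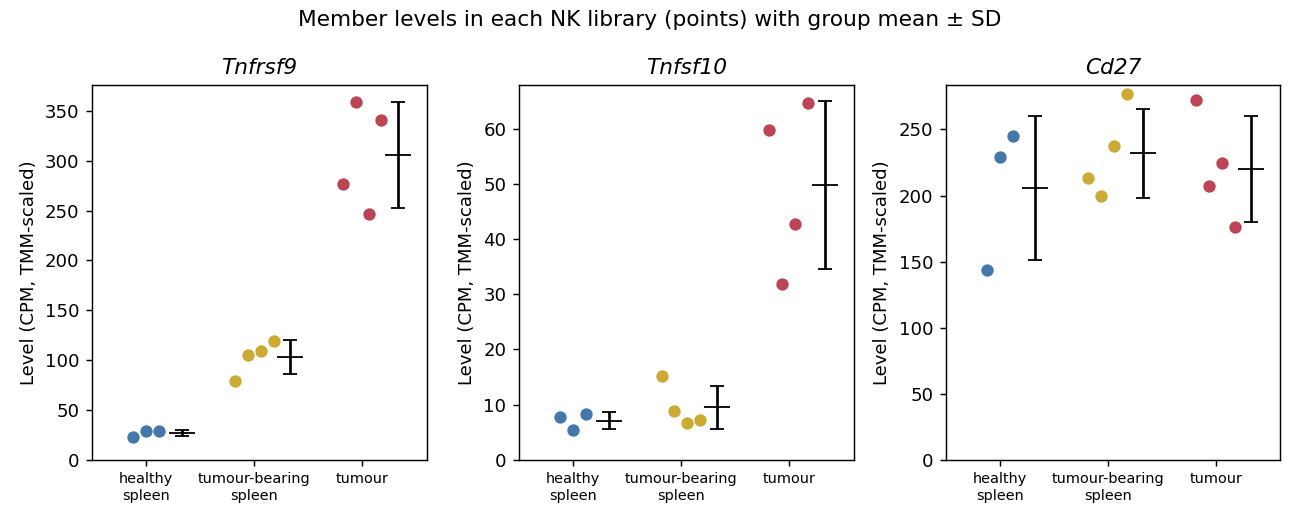
Level of each member in CPM (y axes, starting at 0) in every NK library (points), by group, with the group mean ± SD in black beside the points (n = 3, 4 and 4). Tnfrsf9 steps up from 27.0 to 103 to 306 CPM without overlap, Tnfsf10 is higher in the 4 tumour libraries alone, and the Cd27 points of the 3 groups overlap.

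Tnfsf10 was high in tumours and low in both spleen groups. Replicates 1 to 4 of tumour NK had 59.8, 31.9, 42.7 and 64.7 CPM. Tumour-bearing spleen NK replicates 1 to 4 had 15.2, 8.93, 6.69 and 7.23 CPM, and healthy spleen NK replicates 1 to 3 had 7.70, 5.35 and 8.25 CPM. The lowest tumour library was above the highest spleen library, and the spleen groups overlapped. Means were 49.8 ± 15.2 CPM (SD, n = 4) in tumours, 9.52 ± 3.93 (n = 4) in tumour-bearing spleens and 7.10 ± 1.54 (n = 3) in healthy spleens. Spleen libraries gave only 5 to 20 counts each, so their levels and the folds against them are imprecise.

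Tnfsf10 rose 5.36-fold against tumour-bearing spleens (log2 fold change 2.42, SE 0.278, 95% interval 1.84 to 3.00, edgeR adjusted p 1.67e-06). Against healthy spleens it rose 7.30-fold (log2 fold change 2.87, SE 0.343, 95% interval 2.15 to 3.59, edgeR adjusted p 3.01e-06). Between the spleen groups the log2 value was 0.44 (SE 0.397, 95% interval −0.38 to 1.27, edgeR adjusted p 0.764), an interval that still includes a 2.42-fold rise. Within the tumour-bearing spleens the libraries of the first side averaged 12.1 CPM and those of the second 6.96 CPM. Against the first side alone the tumour difference was 2.10, and against the second alone 2.85, both called.

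Some lists of cell markers, though not all, were higher in tumours as well. Of 13 ILC1 markers, a list that contains Tnfsf10, 12 were in the table and 11 were tested. In tumours 10 were higher against tumour-bearing spleens and none lower, with Tnfsf10 itself among the 10. Over all genes tested in that comparison 15.8% were called higher and 13.2% lower. The median log2 fold change of the list was 2.59, where the median over all genes tested was 0.0014. Since low genes could pass the filter through the tumours, these counts and this median describe the tested genes alone. The list summed to 909 to 1115 CPM in tumour libraries, 121 to 269 in tumour-bearing spleens and 124 to 240 in healthy spleens. Cxcr6, a chemokine receptor of tissue lymphocytes, was at 87.6 CPM in tumours and 13.9 in tumour-bearing spleens (log2 change 2.70, edgeR adjusted p 1.33e-06). Tmem176b, a membrane protein, was at 261 and 44.1 CPM (log2 change 2.59, edgeR adjusted p 6.25e-08). Itga1, the integrin subunit that helps define ILC1, had only 5 to 8 counts in each tumour library and at most 2 in a spleen library, and was not tested. Eomes, which NK cells express and ILC1 largely lack, was at 629 CPM in tumours and 450.4 in tumour-bearing spleens, a difference that missed the threshold (log2 change 0.48, edgeR adjusted p 0.102). Each of the 12 genes of the ILC1 list in the table had counts in at least 1 healthy spleen library. However, 2 of them had at most 3 counts in every healthy spleen library, the floor used here. In tumour-bearing spleens 1 of the 12, Il2ra, was at 0 counts in every library.

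The macrophage and monocyte list summed to 594 to 1292 CPM in tumours, 180 to 730 in tumour-bearing spleens and 163 to 860 in healthy spleens, mostly from Ccr2. It had 8 of 12 genes in the table. Against tumour-bearing spleens 1 of its 3 tested genes was called, where 15.8% of all genes were called higher and 13.2% lower. This was Apoe, which was higher (log2 change 2.84, edgeR adjusted p 0.0406), on 105 CPM in the highest tumour library and 10.1 in the lowest. Its log2 change was 2.71 to 3.07 without any 1 tumour-bearing spleen library, where the call was lost, and 1.10 without tumour replicate 3, where it was kept. Csf1r was at 0 counts in all 7 spleen libraries and at most 12 in a tumour library. The neutrophil list had 5 of 11 genes in the table, all 5 with at most 3 counts in every healthy spleen library. It summed to 61.5 to 158 CPM in tumours and 1.45 to 13.4 in both spleen groups. Retnlg was at 0 counts in the spleens and 3 to 15 in the tumours. Both tested genes of the list, out of 2, were higher against tumour-bearing spleens. The carcinoma or epithelial list, with 2 of 9 genes in the table, summed to 27.7 to 54.9 CPM in tumours. In the spleens it summed to 0 to 3.08 CPM. Epcam had no more than 9 counts in any library. Cdh1, the 1 tested gene, was higher against tumour-bearing spleens (log2 change 5.13). Low neutrophil and carcinoma genes could pass the filter through the tumours, so these calls describe the tested genes alone. B cell markers summed to 4.35 to 23.4 CPM in tumours and 8.37 to 25.6 in the spleens, and fibroblast markers to 5.80 to 30.3 and 3.05 to 18.7 CPM. Only 2 of 9 B cell and 3 of 10 fibroblast markers were in the table, so these sums cover a part of each list. The part of these cells in the Tnfsf10 and Tnfrsf9 levels was not tested. Tumour replicate 3 had the highest macrophage sum.

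Cd27 did not differ between any 2 groups beyond the spread of the libraries. Healthy spleen NK replicates 1 to 3 had 143, 229 and 245 CPM. Tumour-bearing spleen NK replicates 1 to 4 had 213, 200, 237 and 277 CPM, and tumour NK replicates 1 to 4 had 272, 207, 225 and 176 CPM. The 3 ranges overlapped, and the lowest value came from the shallowest library, healthy replicate 1. Means were 206 ± 54.7 CPM (SD, n = 3), 232 ± 33.8 (n = 4) and 220 ± 40.2 (n = 4). Each value rested on 93 to 461 counts, the most of the 3 members in the spleens.

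For Cd27 the tumour level differed from that of tumour-bearing spleens by −0.07 on the log2 scale (SE 0.168, 95% interval −0.42 to 0.28, edgeR adjusted p 0.788). From healthy spleens it differed by 0.08 (SE 0.184, 95% interval −0.30 to 0.47, edgeR adjusted p 0.771), and the spleens differed by 0.15 (SE 0.183, 95% interval −0.23 to 0.54, edgeR adjusted p 0.840). In these 3 comparisons 29.7%, 34.8% and 12.2% of all genes had groups that did not overlap. These intervals leave room for a tumour level from 0.746-fold to 1.21-fold of that in tumour-bearing spleens, and do not show that the levels are equal. The signs changed with the libraries left out. Vamp1, which encodes a vesicle protein and spans Cd27 on the other strand, was at 62.3, 66.7, 42.7 and 58.0 CPM in tumour replicates 1 to 4 and between 21.7 and 35.5 CPM in every spleen library. It rose in tumours against tumour-bearing spleens (log2 change 1.12, edgeR adjusted p 1.31e-04), where Cd27 was not called.

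**Figure D2:**
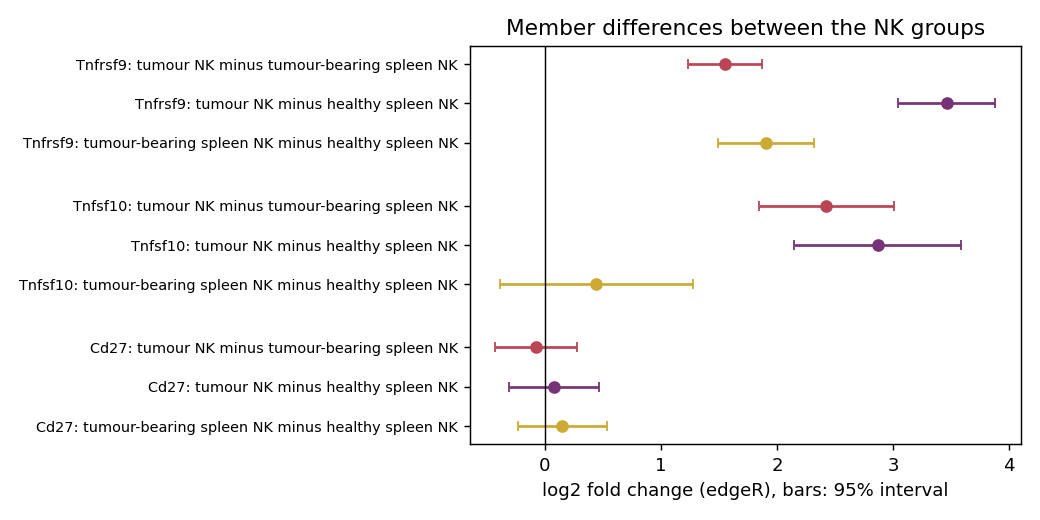
Log2 fold change of each member (x axis, points) with its 95% interval (bars) in the 3 comparisons of NK groups, from the fit of all 11 libraries. All 3 intervals of Tnfrsf9 lie above 0, as do the tumour intervals of Tnfsf10, and the 3 intervals of Cd27 include 0.

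Other genes of NK maturation were called in tumours where Cd27 was not. Of 14 genes listed for the mature, CD27-low stage, 10 were lower and 1 higher in tumours against tumour-bearing spleens, with a median log2 fold change of −1.11. Over all genes tested in that comparison 13.2% were called lower and 15.8% higher. Klrg1, an inhibitory receptor of mature NK cells, fell from 554 ± 62.3 to 179 ± 29.6 CPM (SD, n = 4 each; log2 change −1.62, edgeR adjusted p 5.40e-08). Itgam, the integrin chain CD11b that is read beside CD27 to stage NK cells, fell from 399 ± 74.0 to 209 ± 23.2 CPM (log2 change −0.94, edgeR adjusted p 2.31e-04). Gzmb, which encodes granzyme B, was the 1 higher gene (log2 change 0.91, edgeR adjusted p 1.10e-04). Of 14 genes listed for the immature stage, Cd27 among them, 6 were higher and 1 lower in the same comparison, with a median of 0.68. Kit, the stem cell factor receptor, rose from 33.2 ± 5.90 to 122 ± 16.5 CPM (log2 change 1.87, edgeR adjusted p 5.61e-08), and Emb, which encodes embigin, by 2.53. Cd7 was the 1 lower gene, at −0.47. In the spleens of tumour-bearing against healthy mice, Kit and Xcl1 of the immature list and Cx3cr1 and Gzmb of the mature list were higher. No gene of either list was lower. Over all genes tested in that comparison 1.23% were called higher and 0.354% lower. The Kit call was lost without healthy replicate 2 (log2 change 1.31, edgeR adjusted p 0.0537).

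The family around the members was mixed. Of 46 listed ligands and receptors 29 were in the table and 22 passed the filter. In tumours against tumour-bearing spleens 11 were higher and 3 lower, where 15.8% of all genes were called higher and 13.2% lower. Without the 3 members the counts were 9 and 3 of 19, with a median log2 fold change of 0.82. Since low genes could pass the filter through the group in which they are high, these counts describe the tested genes alone. Against healthy spleens 11 were higher and 4 lower, where 14% of all genes were called lower. Between the spleens Tnfrsf9 alone was called, out of 22 tested, where 1.58% of all genes were called in either direction. With the spleen side as a block, Tnfsf14 was called as well, at 0.51 on the log2 scale (edgeR adjusted p 0.00950). Without the block its log2 change was 0.56 (edgeR adjusted p 0.0660). The side was drawn from these same counts, so the call with the block is no added support.

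Among the ligands, Fasl, Lta, Tnf and Tnfsf9 rose in tumours besides Tnfsf10, and Tnfsf12 fell. Fasl, the ligand of the death receptor Fas, had 645, 739, 556 and 568 CPM in tumour replicates 1 to 4 and 341, 296, 214 and 171 in tumour-bearing spleen replicates 1 to 4. The groups did not overlap (log2 change 1.29, SE 0.240, edgeR adjusted p 0.00109). Lta, which encodes lymphotoxin alpha, rose from 6.54 ± 2.59 to 34.7 ± 9.22 CPM (SD, n = 4 each; log2 change 2.43, SE 0.288, edgeR adjusted p 2.47e-06). Tnf, the founding cytokine of the family, rose to 64.0 ± 13.8 CPM (log2 change 1.56, SE 0.242, edgeR adjusted p 6.22e-05). Tnfsf9, the ligand of the Tnfrsf9 product, was at 16.8 to 29.0 CPM in tumour libraries and 6.69 to 9.49 in tumour-bearing spleens (log2 change 1.41, SE 0.268, edgeR adjusted p 5.11e-04), on 12 to 28 counts per library. Ligand and receptor of this pair were both higher in tumours. Ltb, the membrane partner of lymphotoxin alpha, was at 957 CPM in tumour-bearing spleens and 1257 in tumours and missed the threshold (log2 change 0.39, edgeR adjusted p 0.0977). Tnfsf12, which encodes TWEAK, was at 191 to 238 CPM in tumour-bearing spleens and 119 to 133 in tumours (log2 change −0.80, SE 0.128, edgeR adjusted p 9.28e-05).

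Among the receptors, Tnfrsf12a, the receptor of TWEAK, had the largest rise of the 14 tested against tumour-bearing spleens. It was at 106, 101, 106 and 103 CPM in tumour replicates 1 to 4 and 25.2, 24.6, 23.2 and 15.2 in those of the spleens (log2 change 2.23, SE 0.168, edgeR adjusted p 6.46e-09). The receptor Tnfrsf12a and its ligand Tnfsf12 went opposite ways. Tnfrsf1b, the TNF receptor without a death domain, rose to 40.3 ± 8.20 CPM (log2 change 1.87, edgeR adjusted p 2.19e-05). Tnfrsf1a, the TNF receptor with one, was at 97.3 ± 11.2 CPM in tumours and 118.5 ± 11.2 in tumour-bearing spleens, which missed the threshold (log2 change −0.29, edgeR adjusted p 0.123). Tnfrsf18, which encodes the costimulatory receptor GITR, rose to 494 ± 18.9 CPM (log2 change 1.00, edgeR adjusted p 8.14e-06). Fas rose from 4.79 to 12.9 CPM (log2 change 1.47, edgeR adjusted p 0.00188), on no more than 23 counts in a library. Tnfrsf4, which encodes OX40, was the costimulatory receptor that was lower, at 6.17 ± 1.79 CPM in tumours and 15.04 ± 6.04 in tumour-bearing spleens (log2 change −1.21, edgeR adjusted p 0.00920). That call was lost against the first side of the spleen split alone (−0.80, edgeR adjusted p 0.131). Relt, an orphan receptor of the family, was lower as well (log2 change −1.18, edgeR adjusted p 9.49e-05).

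**Figure D3:**
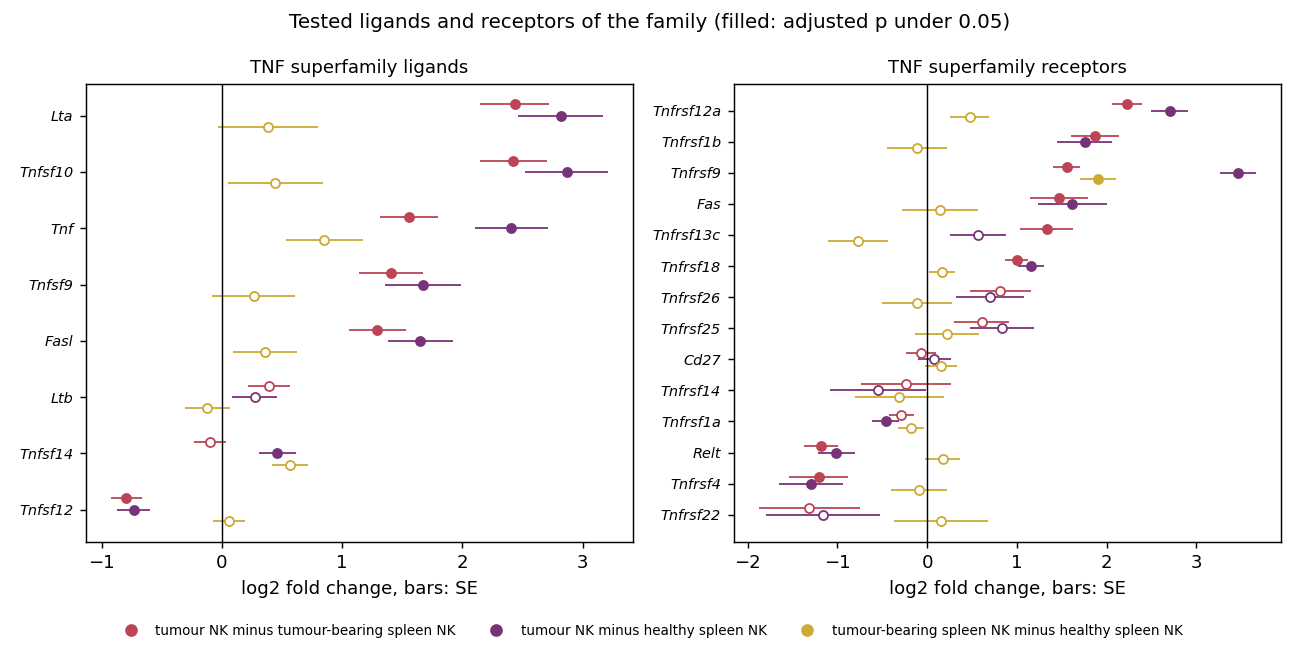
Log2 fold change with its SE (x axes) for the 8 tested ligands and 14 tested receptors, in 3 comparisons by colour. Filled points have an adjusted p under 0.05 and open points do not. Tnfrsf9 has the one filled point of the comparison between spleens, at 1.91, and Tnfsf12, Relt and Tnfrsf4 lie below 0 in tumours.

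Most tested genes of NF-kappaB, a pathway that receptors of the family can feed, rose in tumours. The part of the receptors in this rise was not tested. Of 15 tested subunits and inhibitors 12 were higher and none lower against tumour-bearing spleens, with a median log2 fold change of 1.22, where 15.8% of all genes were called higher and 13.2% lower. Against healthy spleens 12 were higher and none lower as well, where the shares were 16.5% and 14%. Nfkbia, the main cytoplasmic inhibitor of NF-kappaB, rose from 357 ± 30.5 to 2426 ± 108 CPM (log2 change 2.76, edgeR adjusted p 2.08e-11). Tnfaip3, which encodes the feedback enzyme A20, rose from 116 ± 66.5 to 1343 ± 221 CPM (log2 change 3.53, edgeR adjusted p 0.00179). Nfkb2, the precursor of the alternative pathway's p52 subunit, rose by 1.74 on the log2 scale and Rel, a subunit of the canonical pathway, by 2.51. Between the spleen groups none of the 15 was called, where 1.58% of all genes were, and the median was 0.14.

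Of 18 tested TRAF and inhibitor of apoptosis genes 5 were higher and 2 lower in tumours against tumour-bearing spleens (median 0.24), where 15.8% of all genes were called higher and 13.2% lower. Birc3, a ubiquitin ligase that binds TRAF2, rose from 43.4 ± 8.85 to 183 ± 21.6 CPM (log2 change 2.08, edgeR adjusted p 3.05e-08), and its relative Birc2 by 1.31. Map3k14, which encodes the kinase NIK of the alternative NF-kappaB pathway, rose as well (log2 change 1.61, edgeR adjusted p 8.04e-06). Traf1, an adaptor of the 4-1BB protein, was at 8.83 CPM in tumour-bearing spleens and 10.2 in tumours, without a call (log2 change 0.24, edgeR adjusted p 0.615). Traf2 was at 67.1 and 61.8 CPM, also without a call (log2 change −0.12, edgeR adjusted p 0.597). Traf5, an adaptor of CD27, was lower (log2 change −0.80, edgeR adjusted p 0.00690), as was Tradd, an adaptor of death domain receptors (log2 change −0.83, edgeR adjusted p 0.00748). In the death receptor cascade 2 of 12 tested genes were higher, among them Bcl2, a survival protein, at 0.57, and Bid, which links death receptors to mitochondria, was lower at −0.79. These counts were close to the shares over all genes. The median was −0.14, and Casp8, the initiator caspase, was not called (log2 change 0.19, edgeR adjusted p 0.315). Between the spleens no gene of these 2 lists was called, where 1.58% of all genes were.

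**Figure D4:**
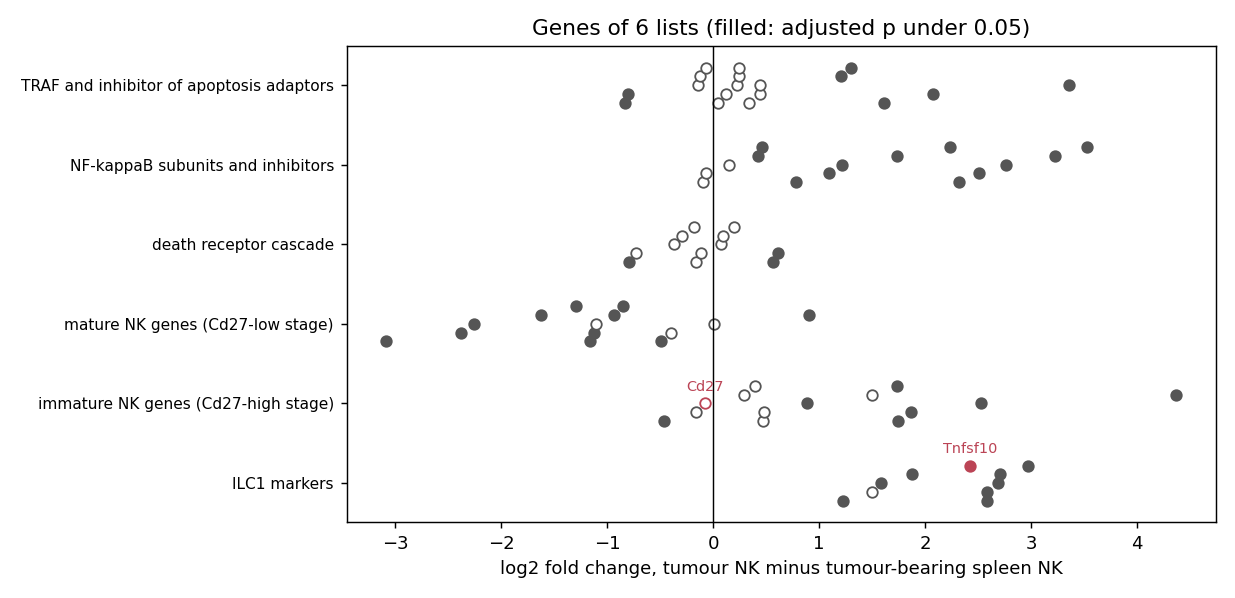
Log2 fold change in tumour NK against tumour-bearing spleen NK (x axis) for each tested gene of 6 lists (rows; the vertical spread within a row only separates points), with Tnfsf10 and Cd27 in red. Filled points have an adjusted p under 0.05, and Il2ra, at 0 counts in all 4 tumour-bearing spleen libraries, is left out. NF-kappaB genes lie at or right of 0 apart from Tnip2 at −0.06 and Cyld at −0.09, and Cd27 lies near 0 within a list whose called genes are mostly to the right.

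Over the 11 libraries each member had its own nearest genes by Pearson r of log2 CPM. For Tnfrsf9 they were Dusp2 (r 0.991), Ldha (0.982), Irf8 (0.981), Plk3 (0.980) and Gzmb (0.978), out of 8219 named genes. Dusp2, a phosphatase of MAP kinases, stepped from 762 to 1513 to 2623 CPM from healthy spleens to tumour-bearing spleens to tumours. For Tnfsf10 the nearest were Hopx (0.987), Ifi44l (0.985), Klf6 (0.984), Gzmf (0.983) and Rnf213 (0.982). Gzmf averaged 0 CPM in healthy spleens, 0.33 in tumour-bearing spleens and 17.6 in tumours, so its r rests on the tumour libraries. Ifi44l, an interferon-induced gene, was at 8.58, 11.1 and 38.2 CPM in the same order. For Cd27 the values were lower, with Sap18b at 0.900, Yipf1 at 0.872 and Mrps36 at 0.868. Group means of Mrps36 were only 3.13 to 7.01 CPM, near the floor. The genes most unlike were Kif21b for Tnfrsf9 (−0.983), Rad9a for Tnfsf10 (−0.984) and Zfp263 for Cd27 (−0.896). Among the members themselves r was 0.818 between Tnfrsf9 and Tnfsf10, 0.196 between Tnfrsf9 and Cd27 and −0.03 between Tnfsf10 and Cd27. These values are a description. The points share their 3 groups, so genes with the same order of groups score high.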

How the data were processed

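Bulk 3' end RNA of 11 NK libraries was analysed. The deposited files hold unnormalised read counts by gene symbol, which the authors made with bcl2fastq, STAR 2.4.2a and HTSeq on build mm10, per the submitters' processing notes. Annotation, strand setting and use of molecular identifiers are not given in the sources used here. The lowest per-gene maximum in the NK table was 6 counts. A run of spaces replaces a tab in each header, so columns were read by position. Genes were kept by filterByExpr, scaled by TMM and tested in edgeR 4.0.16 (R 4.3.3) with 1 robust quasi-likelihood fit of all 11 libraries and the group as the only term. A call is a Benjamini-Hochberg adjusted p under 0.05 over 8471 genes. The SE is the log2 fold change divided by the root of its F. The fit was checked on simulated counts. Alternatives were other scalings, no filter, DESeq2 1.42.0, 2 groups only, a replicate block, the spleen sides and leaving out each library.

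The members, gene lists and motifs were chosen with earlier results of these data known. Ligands and receptors could be named when tested, other list genes when among the 6 largest called changes of their list (uncalled genes, Cd7, Gzmb, Itgam, Nfkb2 and the defining markers were named after their values were seen), and like genes as the 5 highest and 3 lowest r. Gene positions are from GENCODE M21, and the 250 bases before each start from RefSeq, in which all 3 members matched. One gene of the death receptor list is not reported here by name.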

Additional observations from a re-analysis of the deposited data

Results flagged for a closer look

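In tumour NK, 1 library stood apart for Lta. Replicate 4 had 48.5 CPM, and the other 3 tumour libraries had 29.5 to 30.4 CPM. In the tumour-bearing spleens 1 library stood apart for Tnfsf9, replicate 3, which had 6.69 CPM where the other 3 had 9.15 to 9.49 CPM. Both were marked because the gap to the nearest library was above the 95% critical value of Dixon's test for 4 libraries. These were 2 of 44 groups checked, and chance marks about 1 in 20. Both rest on few counts, and neither involves Tnfrsf9, Tnfsf10 or Cd27.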

How the results depend on the processing

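Of 135 values of the 3 members under alternatives, 127 kept both direction and call, and the other 8 were sign changes of Cd27, which was not called in any of them. Tnfrsf9 and Tnfsf10 kept every call, with log2 fold changes against tumour-bearing spleens of 1.46 to 1.55 and 2.32 to 2.41 when every library of the compared groups was kept, and of 1.41 to 1.70 and 2.10 to 2.85 against 1 spleen side alone. Leaving out 1 library at a time gave 1.42 to 1.64 and 2.26 to 2.67. For Cd27 these gave −0.188 to 0.0174 against tumour-bearing spleens, −0.123 to 0.219 against healthy spleens and −0.0219 to 0.291 between the spleens. It was 0.10 in tumours against the first spleen side alone (tumour-bearing replicates 1 and 2), −0.10 against healthy replicates 2 and 3 alone, and −0.0174 against healthy spleens under upper-quartile scaling. Against healthy replicate 1 alone it was 0.62, in a fit where the other groups supply the spread of that lone library.

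The number of genes called against healthy spleens fell from 2582 to 1497 with the replicate block and to 1620 against healthy replicate 1 alone, and ran from 1838 to 2971 with 1 library left out. Between the spleens the 134 calls became 42 to 125 with 1 library left out. They were 42 without healthy replicate 2 and 67 without healthy replicate 3. With the side, drawn from these same counts, as a block they became 691. The family count there went from 1 to 2 with that block, and against healthy spleens the 15 family calls ran from 10 to 19 over the alternatives that kept every library or 1 spleen side. For the 25 other family calls, 369 of 387 values kept call and direction, 18 lost the call and none reversed. Replicate numbers pair no libraries by the labels, and same-numbered tumour and tumour-bearing spleen libraries had r of −0.05, 0.29, 0.0025 and 0.21 in their deviations. Libraries of different numbers in these groups had r from −0.25 to 0.16, so 0.29 and 0.21 were above all of them. With the replicate block Tnfrsf9 was at 1.53, Tnfsf10 at 2.36 and Cd27 at −0.10 against tumour-bearing spleens, and no member's call changed. The cause of these shifts was not tested. Depth limits Tnfsf10 in the spleens, at 5 to 20 counts.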

Other observations

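The partners of the members were also looked up in the 3 libraries of sCAFs, a fibroblast subset sorted from the same kind of tumour by the absence of PDPN and of the GFP, EPCAM, CD45 and CD31 markers. Their table was made separately, and its CPM on raw totals are not compared with NK levels. Tnfsf9, the ligand for 4-1BB, was at 38.1, 57.7 and 49.6 CPM in the 3 sCAF libraries. Tnfrsf10b, the mouse death receptor for TRAIL, was at 31.4, 34.1 and 34.5 CPM. The decoy receptors for TRAIL were found as well, Tnfrsf22 at 21.1, 25.8 and 29.3 CPM and Tnfrsf23 at 10.8, 36.4 and 40.5 CPM. Tnfrsf11b, which encodes the soluble decoy osteoprotegerin, had only 3 or 4 counts per library, close to the limit of 3 counts. Cd70, which encodes the ligand of CD27, had no value in the NK or the sCAF libraries, which does not show that it was absent. Tnfrsf12a, the receptor of TWEAK and not a partner of a member, was at 1060 ± 72.9 CPM (SD, n = 3).

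Of the family genes below the filter in NK cells, Tnfsf11, which encodes RANKL, had 11, 6, 8 and 6 counts in tumour replicates 1 to 4. It had 0 counts in all 3 healthy libraries, which allows up to 4.62 CPM in the shallowest, and no more than 1 in a tumour-bearing spleen library. Tnfsf8, which encodes the CD30 ligand, had 3 to 7 counts in each tumour library and at most 2 in a spleen library. In NK cells Tnfrsf22 was at 1.90 to 3.01 CPM in tumours and 3.35 to 12.2 in tumour-bearing spleens, which missed the threshold (log2 change −1.31, edgeR adjusted p 0.0895).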
